A study of Mus musculus with 18 samples.

Results

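The genes described here are 10 protein-coding genes listed as neighbours of Myod1 on mouse chromosome 7: Otog, Sergef, Saal1, Hps5, Gtf2h1, Tsg101, Uevld, Spty2d1, Pik3c2a and Nucb2. They were listed by name, with earlier results of these data known. They are 10 of the 35275 genes in the deposited table, and all 10 were tested. Against the mouse annotation the description as flanking genes held for 8 of them, whose starts lie within 1 Mb of the start of Myod1. Pik3c2a and Nucb2 lie 70.1 Mb away on the same chromosome, so these genes serve below as a distant pair; their human counterparts do lie beside MYOD1.

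Poly(A) RNA was sequenced from C2C12, an established mouse myoblast cell line that can be driven to fuse into muscle fibres by lowering the serum. The labels describe the stock as PAX7 negative, so all 6 groups share that background. There were 3 genotypes: control cells labelled Wild-type, cells labelled MUNC spliced overexpressing (MS) and cells labelled MUNC genomic overexpressing (MG). Each was sampled as 3 biological replicates at about 80% confluency in growth medium with 20% FBS (GM), and as 3 after 3 days in differentiation medium with 2% HS (DM3). How MUNC was introduced, and whether a line came from 1 clone, is not given in the sources used here. The replicates of a line may therefore share whatever is particular to that line, and p-values measure the spread between these cultures only.

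MyoD, the product of Myod1, is a basic helix-loop-helix transcription factor that binds E-box sequences and switches on the muscle programme in myoblasts. MUNC, also known as DRR eRNA, is a long noncoding RNA transcribed from the distal regulatory region upstream of Myod1. Enhancers and the RNAs made at them are known to act on neighbouring genes in cis, while an RNA supplied from elsewhere can reach genes on any chromosome in trans. Setting the genes around Myod1 beside distant ones shows where differences lie. Such a comparison cannot separate cis from trans, because Myod1 was itself higher in both lines and how MUNC was introduced is not given. No gene in the table carries the name of MUNC, and its level was not analysed here.

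Coordinates are those of GENCODE M21 on GRCm38, the assembly also called mm10. Myod1 lies on the plus strand at chr7:46376474-46379099. Otog, at chr7:46240987-46311434 on the plus strand, is the adjacent coding gene on its upstream side, with 0 coding genes between them and its start 135 kb before that of Myod1. The other 7 nearby genes lie downstream. Sergef (chr7:46443154-46639807, minus strand) starts 263 kb after Myod1 and Saal1 (chr7:46686108-46710680, minus strand) 334 kb after it. Hps5 (chr7:46760466-46796064, minus strand) and Gtf2h1 (chr7:46796103-46823800, plus strand) start 420 kb away, head to head, with 38 bases between their starts. Tsg101 (chr7:46888949-46919969), Uevld (chr7:46923216-46958527) and Spty2d1 (chr7:46990396-47008411), all on the minus strand, start 543, 582 and 632 kb away, with 12, 13 and 15 coding genes between them and Myod1. Pik3c2a (chr7:116337265-116443449, minus strand) and Nucb2 (chr7:116504369-116540584, plus strand) start 60.9 kb from each other, with 661 and 662 coding genes between them and Myod1. Annotated exons of Sergef, Spty2d1 and Pik3c2a overlap those of Gm45311 by 826 bases, Gm32031 by 329 bases and Gm44777 by 1369 bases. The strand setting of the counting is not given in the sources used here, so reads of these overlapping genes cannot be told apart.

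The start regions of Otog and Gtf2h1 are printed because Otog is the gene that changed most and because the second region is shared by 2 divergent genes. Sequences are from RefSeq on GRCm38.p6, from 250 bases before to 50 after the start, 5′ to 3′ on the strand of the gene. RefSeq entries were matched for 9 of the 10 genes; Saal1 was not matched. Capitals mark the E-box CANNTG, searched on both strands. The Otog window is chr7:46240737-46241036 (plus strand) and the Gtf2h1 window is chr7:46795844-46796143 (plus strand).
Otog: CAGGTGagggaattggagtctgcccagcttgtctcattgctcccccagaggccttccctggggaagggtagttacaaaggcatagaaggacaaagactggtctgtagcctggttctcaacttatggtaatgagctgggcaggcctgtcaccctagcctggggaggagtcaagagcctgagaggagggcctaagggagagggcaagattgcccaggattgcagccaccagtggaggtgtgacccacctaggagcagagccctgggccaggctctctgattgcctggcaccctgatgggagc
Gtf2h1: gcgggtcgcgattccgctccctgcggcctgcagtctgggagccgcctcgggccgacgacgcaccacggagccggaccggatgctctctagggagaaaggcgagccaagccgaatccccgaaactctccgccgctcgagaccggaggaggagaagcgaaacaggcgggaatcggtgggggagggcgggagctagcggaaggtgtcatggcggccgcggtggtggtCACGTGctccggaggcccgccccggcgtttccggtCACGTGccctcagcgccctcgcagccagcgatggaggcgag
The Otog window holds 1 E-box, of the form CAGGTG, which 20.0% of 27025 promoter windows hold at least once. It holds 0 CpG dinucleotides, against 20 to 39 in the windows of the other 8 matched genes and a median of 7 over all promoters. The window of Gtf2h1, which overlaps that of Hps5, holds 2 E-boxes of the form CACGTG, a form found in 7.24% of windows and at least 2 times in 0.625%. Both read CACGTGAC on the Hps5 strand, and that longer form, looked for after the sequence had been read, is in 2.33% of windows. The CACGTGAC matches contain the CACGTG matches, which are also CANNTG matches. CANNTG of any form is in 72.1% of windows; among the listed genes it was also found in the window of Spty2d1 and not in those of Sergef, Tsg101, Uevld, Pik3c2a or Nucb2. A match is a run of letters and was not tested as a binding site.

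Levels are given in FPM, which are reads of a gene scaled by 1 factor per library. The libraries held 38416702 to 68788327 reads, so that 3 reads, taken as the floor of detection, came to 0.0429 to 0.0757 FPM. At least 232 reads stood behind every value of 9 of the genes, while Otog had 0 to 381 reads. Per kilobase of exon, control GM cells had 34.8 ± 4.75 FPM (SD, n = 3 here and below) of Gtf2h1, 23.9 ± 3.92 of Tsg101, 17.3 ± 5.55 of Nucb2 and 11.2 ± 1.83 of Pik3c2a. They had 7.76 ± 1.42 FPM per kb of Spty2d1, 5.45 ± 0.180 of Hps5, 4.13 ± 1.03 of Uevld, 3.76 ± 0.0914 of Saal1, 3.47 ± 0.513 of Sergef and 0.0108 ± 0.0103 of Otog. In that order Nucb2 differed by less than the summed SDs from the genes on either side of it, as did Uevld, Saal1 and Sergef among themselves.

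Replicates of a group correlated at r = 0.980 to 0.996 over the tested genes and libraries of different groups at 0.868 to 0.975. Of 6 fibroblast markers, Thy1 and Tcf21 had 3 reads or fewer in all 18 libraries, as did Adipoq of the 4 adipocyte markers, while the summed fibroblast markers, collagens included, ranged from 3279 to 14867 FPM. Summed myoblast markers ranged from 194 to 1284 FPM and differed by group, with 194 to 308 FPM in control GM and 1131 to 1284 FPM in MG DM3. The 4 smooth muscle markers summed to 1194 to 3648 FPM over the 18 libraries. The 8 myotube markers summed to 12.0 to 31.5 FPM in control GM and 8.26 to 13.4 FPM in control DM3, so control libraries labelled Myotubes held no more of these RNAs than GM libraries. Differentiation below therefore names the change from GM to DM3 and not the forming of myotubes. In the other lines the sum was 20.1 to 36.8 FPM in MS GM and 155 to 832 FPM in MS DM3, and 7.80 to 12.7 FPM in MG GM and 51.4 to 96.5 FPM in MG DM3. In such bulk RNA, fewer cells of a type and less RNA per cell cannot be told apart.

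**Figure D1:**
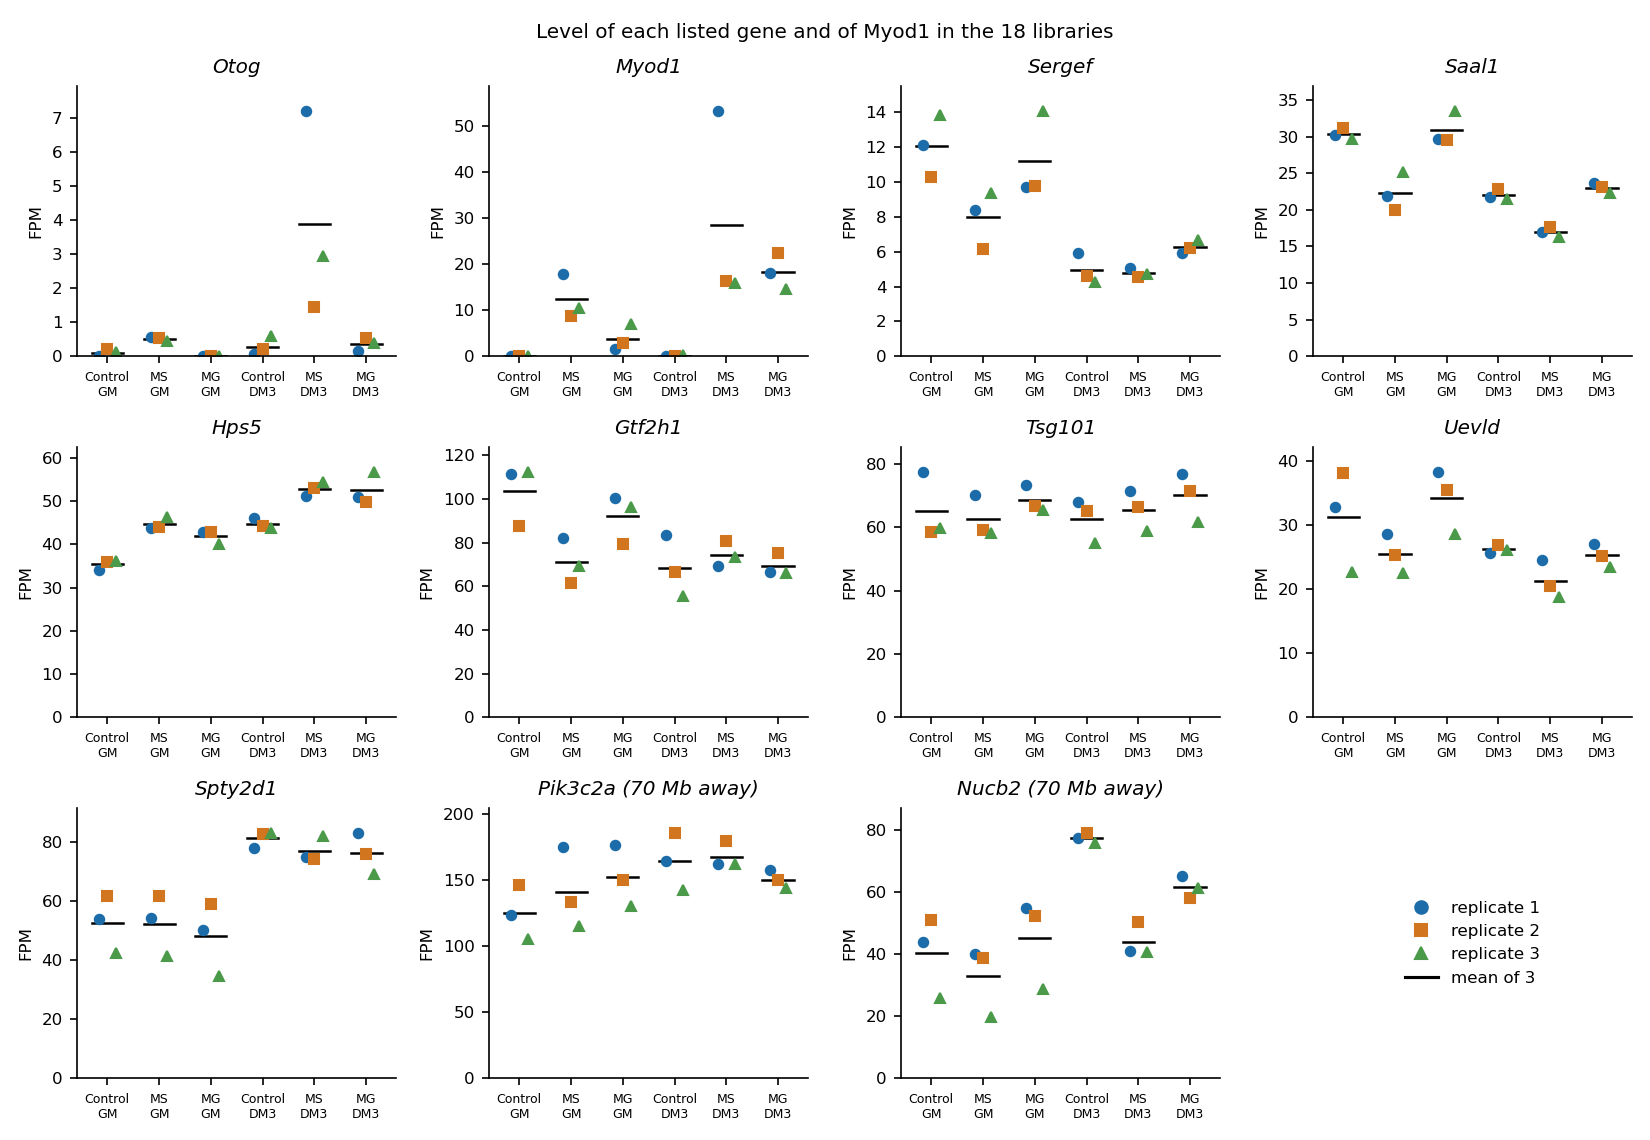
FPM of each listed gene and of Myod1 (y axes from 0) in the 18 libraries, by group; symbols mark the replicate number and bars the mean of 3. Otog reaches 7.23 FPM in MS DM3 and is under 0.6 FPM in every library of the other groups, while the Tsg101 libraries span 55.2 to 77.6 FPM.

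Otog, the upstream neighbour of Myod1, codes for otogelin, a structural protein of the acellular membranes of the inner ear. It was detected at 7.23, 1.46 and 2.95 FPM in MS DM3 (381, 84 and 163 reads). Control DM3 libraries had 0.0576, 0.217 and 0.589 FPM (3, 11 and 32 reads) and MG DM3 libraries 0.158, 0.527 and 0.390 FPM (8, 35 and 20 reads). The lowest MS DM3 library was thus above the highest of every other group, and control and MG DM3 libraries overlapped. In GM the values were 0.555, 0.532 and 0.451 FPM in MS (22, 29 and 25 reads), and 0, 0.212 and 0.123 FPM in control (0, 12 and 8 reads). MG GM libraries were at the detection limit, with 1, 1 and 0 reads. The 3 MS GM libraries lay above the 3 control GM libraries.

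The mean of Otog in MS DM3 was 13.5 times that in control DM3 and 10.8 times that in MG DM3. On the log2(FPM + 1) scale, which understates changes near 0, it was higher by 1.76 ± 0.28 (SE) than in control DM3 (limma adjusted p = 0.00011) and by 1.67 ± 0.28 than in MG DM3 (limma adjusted p = 0.00015). Within the MS line it rose by 1.51 ± 0.28 from GM to DM3 (limma adjusted p = 0.00077). These 3 calls held in 18 of 18 fits that each left out 1 library, with values of 1.30 to 2.17 against control DM3. MS DM3 replicate 1 stood apart from its group in both Otog and Myod1, and without it the difference from control DM3 was 1.30 and still called. Read-count tests gave 3.74 (edgeR, adjusted p = 0.0011) and 3.76 (DESeq2, adjusted p = 1.3e-05) for that comparison.

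The rise of Otog with differentiation was larger in MS than in control cells by 1.32 ± 0.40 (limma interaction, adjusted p = 0.039). That call was lost with a pseudocount of 0.1 (1.65, limma adjusted p = 0.18), with edgeR (1.61, adjusted p = 0.37) and with DESeq2 (1.56, adjusted p = 0.36). In GM, MS cells were 0.45 ± 0.28 above control (limma adjusted p = 0.24); it was called with a pseudocount of 0.1 (1.68, adjusted p = 0.030), with DESeq2 (2.19, adjusted p = 0.027) and in the fit of the compared groups alone (adjusted p = 0.019), and not with edgeR (2.13, adjusted p = 0.060). Against MG GM, which held 2 reads in all, the MS GM difference was 0.58 (limma adjusted p = 0.12), and the fitted folds of count tests there rest on those 2 reads. The same holds for MG DM3 against MG GM, where Otog differed by 0.42 (limma adjusted p = 0.23) and was called by edgeR (adjusted p = 0.0045) and DESeq2 (adjusted p = 0.00035).

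Myod1 in the same libraries had 53.3, 16.4 and 15.96 FPM in MS DM3 and 18.1, 22.5 and 14.5 FPM in MG DM3, and these overlapped (difference 0.40 ± 0.41, limma adjusted p = 0.45). Control cells had 0.0854, 0 and 0 FPM of Myod1 in GM and 0.0768, 0 and 0.221 FPM in DM3. Otog reads per Myod1 read were 0.0894 to 0.185 in MS DM3 and 0.00876 to 0.0268 in MG DM3, ranges that did not overlap. MS and MG DM3 libraries therefore differed in Otog at overlapping levels of Myod1. The myotube marker sum given above was highest in MS DM3, as Otog was. MG DM3 libraries had more of the markers than control DM3 libraries (51.4 to 96.5 against 8.26 to 13.4 FPM) with overlapping Otog. They also had more than MS GM libraries (20.1 to 36.8 FPM), and there too the Otog libraries overlapped (means 0.359 and 0.513 FPM). Whether Otog follows Myod1 or myotube formation was not tested.

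Hps5 codes for a subunit of BLOC-2, a complex needed to build lysosome-related organelles such as melanosomes. Its divergent neighbour Gtf2h1 codes for a core subunit of TFIIH, the factor that opens promoter DNA for transcription and works in nucleotide excision repair. Hps5 was the only one of the 10 genes called in both lines against control in both media, and it was higher in each case. In GM it was at 34.1, 36.0 and 36.2 FPM in control, 43.8, 44.0 and 46.4 FPM in MS, and 42.8, 43.0 and 40.2 FPM in MG. In DM3 it was at 46.1, 44.3 and 43.7 FPM in control, 51.1, 53.1 and 54.5 FPM in MS, and 50.9, 49.8 and 56.9 FPM in MG. In each medium every MS and MG library lay above every control library, and MS and MG did not differ by the test.

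The Hps5 differences were small: 0.33 ± 0.08 for MS in GM (limma adjusted p = 0.0046), 0.24 ± 0.08 for MG in GM (limma adjusted p = 0.036), 0.24 ± 0.08 for MS in DM3 (limma adjusted p = 0.024) and 0.23 ± 0.08 for MG in DM3 (limma adjusted p = 0.033), or 1.17 to 1.26 times the control mean. Hps5 also rose from GM to DM3 in control by 0.33 (limma adjusted p = 0.0022), in MS by 0.24 (limma adjusted p = 0.030) and in MG by 0.32 (limma adjusted p = 0.0036). All 4 calls against control were lost when only the compared groups entered the fit, with limma adjusted p = 0.063, 0.15, 0.067 and 0.054 in the order given. The MS call in DM3 was also lost without replicate 2 or 3 of either group (0.22 to 0.23). The MG call in GM was lost without any 1 of the control GM libraries or without MG GM replicate 1 or 2 (0.21 to 0.25), and the MG call in DM3 without replicate 2 or 3 of control or replicate 1 or 3 of MG (0.17 to 0.25). The MS DM3-against-GM call was lost with equal sums per library (0.20, adjusted p = 0.060), in the fit of the compared groups alone (adjusted p = 0.11), and without MS GM replicate 1 or 2 or MS DM3 replicate 2 or 3 (0.22 to 0.23).

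Gtf2h1 moved in the opposite direction to Hps5 in MS cells in GM. Its libraries had 111, 87.5 and 113 FPM in control GM, 82.2, 61.6 and 69.4 FPM in MS GM and 100.4, 79.5 and 96.3 FPM in MG GM. The highest MS GM library was below the lowest control library, a difference of -0.54 ± 0.15 (limma adjusted p = 0.010) that was lost without MS GM replicate 2 (-0.44, adjusted p = 0.056). In DM3 the groups overlapped, at 83.4, 66.7 and 55.4 FPM in control, 69.2, 80.6 and 73.6 FPM in MS and 66.7, 75.4 and 66.0 FPM in MG. From GM to DM3 Gtf2h1 fell by 0.60 in control cells (limma adjusted p = 0.0025) and by 0.40 in MG cells (limma adjusted p = 0.034), while the MS difference was 0.07 (limma adjusted p = 0.74).

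The MG call for Gtf2h1 was lost without replicate 1 or 3 of MG GM or of MG DM3 (-0.37 to -0.33), with no filter on low values (-0.40, adjusted p = 0.063) and with quantile normalization (-0.35, adjusted p = 0.055). The MS response to differentiation exceeded that of control by 0.68 ± 0.21 (limma interaction, adjusted p = 0.042), a call that held in 5 of 18 fits leaving out 1 library, where it ranged from 0.54 to 0.83. Against MG GM the MS GM difference was -0.37 (limma adjusted p = 0.063), and with the replicate number as a block the adjusted p was 0.040.

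The ratio of Hps5 reads to Gtf2h1 reads within a library does not depend on library size. It was 0.346 ± 0.0573 in control GM, 0.639 ± 0.0936 in MS GM and 0.461 ± 0.0686 in MG GM. In DM3 it was 0.669 ± 0.118 in control, 0.713 ± 0.0469 in MS and 0.762 ± 0.101 in MG. The 2 genes thus shifted unequally although only 38 bases lie between their starts. The 3 control GM libraries had ratios of 0.306 to 0.412. Both the 3 MS GM libraries (0.534 to 0.713) and the 3 MG GM libraries (0.417 to 0.540) lay above them.

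**Figure D2:**
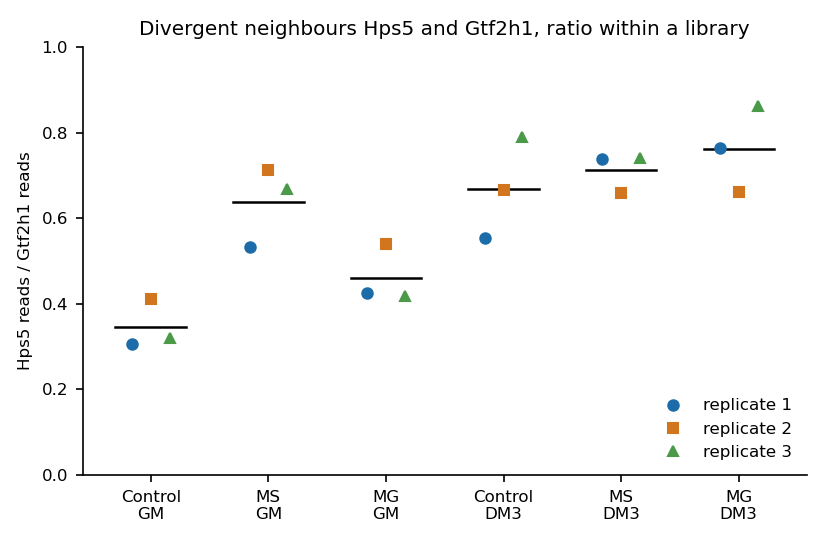
Hps5 reads divided by Gtf2h1 reads in each library (y axis from 0), by group; symbols mark the replicate number and bars the mean of 3. All control GM libraries lie at or below 0.412 and all DM3 libraries at or above 0.554.

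Sergef codes for the secretion-regulating guanine nucleotide exchange factor. It was lower in DM3 than in GM in all 3 genotypes. Control GM libraries had 12.1, 10.3 and 13.8 FPM and control DM3 libraries 5.95, 4.62 and 4.27 FPM, a fall by 1.14 ± 0.17 (limma adjusted p = 3.3e-05). The falls were 0.62 ± 0.17 in MS (limma adjusted p = 0.010) and 0.73 ± 0.17 in MG (limma adjusted p = 0.0020), each with no overlap between media. The MS call was lost without MS GM replicate 3 (-0.51, adjusted p = 0.059).

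In GM, Sergef had 8.40, 6.18 and 9.36 FPM in MS and 9.73, 9.76 and 14.1 FPM in MG. MS differed from control by -0.55 ± 0.17 (limma adjusted p = 0.019), while MG was not called (-0.11, limma adjusted p = 0.70). The MS call was lost without control GM replicate 3 (-0.45, adjusted p = 0.082), without MS GM replicate 2 (-0.40, adjusted p = 0.11), and when only the compared groups entered the fit (adjusted p = 0.076). Against MG GM the MS difference was -0.44 (limma adjusted p = 0.054), and with the replicate block the adjusted p was 0.023. In DM3 the MS libraries, at 5.07, 4.55 and 4.74 FPM, overlapped control, and the MG libraries, at 5.94, 6.19 and 6.65 FPM, gave 0.30 above control (limma adjusted p = 0.18; 0.043 with a replicate block within each medium).

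Saal1, the gene for serum amyloid A-like protein 1, was lower in MS cells than in control and MG cells in both media. In GM it had 30.2, 31.1 and 29.7 FPM in control, 21.9, 19.9 and 25.2 FPM in MS and 29.7, 29.5 and 33.6 FPM in MG. In DM3 it had 21.7, 22.8 and 21.6 FPM in control, 17.0, 17.7 and 16.3 FPM in MS and 23.7, 23.1 and 22.4 FPM in MG. In both media all 3 MS libraries were below all control and all MG libraries.

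Relative to control, Saal1 in MS had a log2 difference of -0.43 ± 0.10 in GM (limma adjusted p = 0.0030) and of -0.36 ± 0.10 in DM3 (limma adjusted p = 0.0080). Relative to MG the MS differences were -0.46 in GM (limma adjusted p = 0.0018) and -0.42 in DM3 (limma adjusted p = 0.0025). All 4 of these calls held in 18 of 18 fits leaving out 1 library; the GM call against control was lost when only the compared groups were fitted (adjusted p = 0.052). MG and control did not differ by the test, with 0.02 in GM (95% interval -0.18 to 0.23) and 0.06 in DM3 (-0.15 to 0.27). Saal1 also fell with differentiation by 0.45 in control (limma adjusted p = 0.0011), 0.37 in MS (limma adjusted p = 0.0084) and 0.41 in MG (limma adjusted p = 0.0027). The MS fall was lost without MS GM replicate 3 (-0.28, adjusted p = 0.057) and in the fit of the compared groups alone (adjusted p = 0.094).

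Tsg101 codes for the ubiquitin-binding subunit of ESCRT-I, which sorts cargo into multivesicular bodies. It was the steadiest of the 10 genes, at 55.2 to 77.6 FPM over the 18 libraries, and it was called in 0 of 11 comparisons. Its log2 differences ran from -0.13 to 0.16, with 95% intervals reaching from -0.41 to 0.50. The highest group mean was 1.12 times the lowest. With a replicate block within each medium, an alternative added after the data had been seen, Tsg101 was called higher in MG DM3 than in control DM3 (0.16, limma adjusted p = 0.037).

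Uevld, the next gene along, codes for a protein that joins a ubiquitin-conjugating-enzyme-like domain of the Tsg101 kind to a lactate dehydrogenase-like domain. GM libraries had 32.7, 38.1 and 22.7 FPM in control, 28.6, 25.3 and 22.4 FPM in MS and 38.3, 35.5 and 28.5 FPM in MG. DM3 libraries had 25.7, 26.8 and 26.1 FPM in control, 24.6, 20.4 and 18.8 FPM in MS and 27.1, 25.1 and 23.5 FPM in MG. The MS DM3 libraries were all below control DM3, but the difference of -0.30 ± 0.16 was not called (limma adjusted p = 0.16). With the replicate block its adjusted p was 0.048, and the MS GM difference from MG GM of -0.41 went from an adjusted p of 0.065 to 0.012 under that block. In MG cells Uevld fell by 0.41 from GM to DM3 (limma adjusted p = 0.046), a call kept in 7 of 18 fits leaving out 1 library (-0.53 to -0.33). It was lost without a single library of MG GM (replicate 1 or 2), MG DM3 (any of the 3), control GM (replicate 1), control DM3 (any of the 3), MS GM (replicate 2) or MS DM3 (replicate 2). It was also lost with no filter on low values (adjusted p = 0.076) and with quantile normalization (-0.31, adjusted p = 0.11).

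Spty2d1 codes for a histone chaperone related to yeast SPT2. It rose with differentiation in all 3 genotypes and was not called in any comparison between genotypes. GM libraries had 53.9, 61.6 and 42.4 FPM in control, 54.1, 61.6 and 41.4 FPM in MS and 50.4, 59.2 and 34.8 FPM in MG. DM3 libraries had 78.2, 82.8 and 83.1 FPM in control, 75.1, 74.2 and 82.1 FPM in MS and 83.2, 76.1 and 69.4 FPM in MG, all above every GM library. The rises were 0.63 ± 0.18 in control (limma adjusted p = 0.0057), 0.57 ± 0.18 in MS (limma adjusted p = 0.020) and 0.68 ± 0.18 in MG (limma adjusted p = 0.0042). The MS rise was lost without MS GM replicate 3 (0.41, adjusted p = 0.12) or MS DM3 replicate 3 (0.52, adjusted p = 0.071).

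Nucb2, one of the distant pair, codes for nucleobindin-2, a calcium-binding protein of the Golgi and the secretory pathway. It had 77.5, 79.1 and 75.9 FPM in control DM3, 40.9, 50.2 and 40.8 FPM in MS DM3 and 65.3, 58.1 and 61.4 FPM in MG DM3. These 3 groups did not overlap, with MS lowest and control highest. The MS difference from MG was not called (-0.48 ± 0.27, limma adjusted p = 0.16). Its limma adjusted p was 0.0097 in the fit of the compared groups alone and 0.00034 with a replicate block within each medium. MS differed from control by -0.81 ± 0.27 (limma adjusted p = 0.023), or 0.567 of the control mean, so a gene 70.1 Mb from Myod1 had the second largest difference of the 10 in that comparison. The call was lost with no filter on low values (adjusted p = 0.052) and without replicate 2 or 3 of control or replicate 1 or 3 of MS (-0.82 to -0.76). The MG difference in DM3 was -0.33 ± 0.27 (limma adjusted p = 0.36); its adjusted p was 0.0054 with a replicate block within each medium and 0.0087 in the fit of the compared groups alone.

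In GM, Nucb2 had 43.9, 51.1 and 25.9 FPM in control, 39.9, 38.8 and 19.9 FPM in MS and 54.7, 52.2 and 28.9 FPM in MG. Replicate 3 was the lowest in each genotype, at 0.505 to 0.546 of the mean of replicates 1 and 2. In GM it was also the lowest in each genotype for Pik3c2a (0.748 to 0.800), Spty2d1 (0.636 to 0.735) and Uevld (0.641 to 0.833), and the highest for Sergef (1.24 to 1.45). What the replicate numbers share is not given in the sources used here. MS GM was -0.30 from control (limma adjusted p = 0.42), and with a replicate block within each medium the adjusted p was 0.011. From MG GM it differed by -0.46 (limma adjusted p = 0.20; 0.00062 with that block). Control cells showed a rise of Nucb2 from GM to DM3 by 0.98 ± 0.27 (limma adjusted p = 0.0055), and without control GM replicate 3 the rise was 0.70 and still called. The differences with differentiation were 0.47 in MS (limma adjusted p = 0.19) and 0.49 in MG (limma adjusted p = 0.14; 0.046 with the replicate block).

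Pik3c2a, the second of the distant pair, codes for a class II phosphoinositide 3-kinase that acts in clathrin-mediated endocytosis. Its libraries spanned 105 to 186 FPM. It rose in control cells from GM to DM3 by 0.40 ± 0.15 with overlapping libraries (limma adjusted p = 0.036). That call was lost with no filter on low values (adjusted p = 0.066), in the fit of the compared groups alone (adjusted p = 0.060), with edgeR (0.36, adjusted p = 0.058), and without control GM replicate 1 or 3 or control DM3 replicate 1 or 2 (0.28 to 0.40). No comparison between genotypes called Pik3c2a, although MG GM reached an adjusted p of 0.032 (difference 0.29) with a replicate block within each medium.

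Counted together, the listed genes were called at a share near that of all 13869 tested genes or below it in comparisons of genotypes. In MS against control GM, 4 of the 10 listed genes (Hps5 higher; Sergef, Saal1 and Gtf2h1 lower) and 35.5% of all genes were called (18.2% higher, 17.3% lower). In MG against control GM 1 listed gene (Hps5, higher) and 26.8% of all genes were called (12.2% higher, 14.5% lower). In MS against control DM3 4 listed genes (Otog and Hps5 higher, Saal1 and Nucb2 lower) and 43.3% of all genes were called (22.3% higher, 21% lower). In MG against control DM3 1 listed gene (Hps5, higher) and 40.3% of all genes were called (19.3% higher, 20.9% lower). MS against MG gave 1 listed gene (Saal1, lower) in GM beside 35.8% of all genes (19.9% higher, 16% lower). In DM3 it gave 2 (Otog higher, Saal1 lower) beside 44.2% (23.4% higher, 20.8% lower). With edgeR or DESeq2 the MS against MG count in GM was 5 of 10 listed genes, Otog higher and Sergef, Saal1, Gtf2h1 and Uevld lower, beside 36.7% and 39.9% of all genes in the same fits. With the replicate block it was 4, beside 47% of all genes.

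The median size of the log2 difference among the 10 genes was 0.31 in MS GM (0.29 over all tested genes), 0.15 in MG GM (0.24), 0.19 in MS DM3 (0.33) and 0.11 in MG DM3 (0.31), each against control. With differentiation, 7 listed genes were called in control (4 higher, 3 lower), beside 58.2% of all genes (29.6% higher, 28.6% lower). In MS 5 were called (3 higher, 2 lower), beside 35.6% (17.2% higher, 18.4% lower), and in MG 6 (2 higher, 4 lower), beside 51.4% (26.3% higher, 25.1% lower). These shares are no result about the listed genes. Interactions with differentiation called 2 listed genes for MS, Otog and Gtf2h1, both with a positive difference, beside 14.4% of all genes (7.43% positive, 6.94% negative). For MG limma called 0, beside 8.81% of all genes (3.56% positive, 5.25% negative), with 0 at an unadjusted p under 0.05 and 0 by edgeR and by DESeq2. Libraries of the compared groups did not overlap for 6 listed genes in control differentiation (62.4% of all genes), 6 in MS (44.6%) and 8 in MG (62.8%). Between genotypes they did not overlap for 5 in MS and 1 in MG against control GM (43.6% and 37.9%), for 5 and 2 in DM3 (53% and 56.9%), and for 4 and 5 in MS against MG in GM and DM3 (45.7% and 57.2%). The line comparisons share their control libraries within a medium, so their values are set side by side and not counted as separate evidence.

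**Figure D3:**
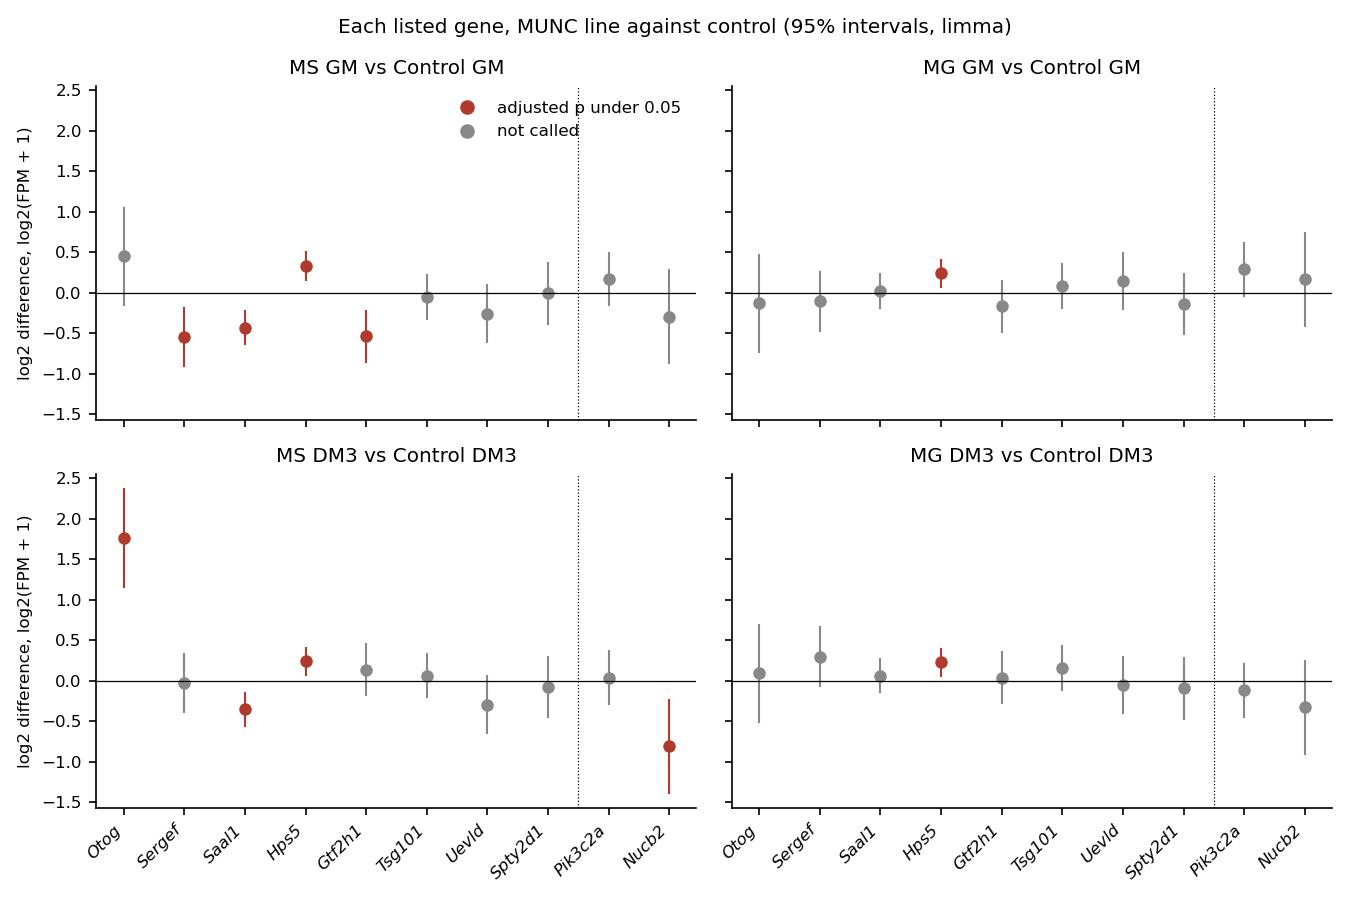
Log2 difference (log2(FPM + 1) scale) of each listed gene in each line against control, with 95% intervals from limma; red marks an adjusted p under 0.05 and the dotted line sets off the genes 70.1 Mb away. Otog in MS DM3 (1.76) is the largest difference, and Hps5 is red in all 4 panels.

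Beyond the listed genes, 71 annotated identifiers in the table start within 1 Mb of Myod1, and 37 of them other than Myod1 were tested, 8 of which are listed genes. Of these 37 genes, 11 were called in MS against control GM (2 higher, 9 lower), or 29.7%, against 36.0% of 12771 tested genes on other chromosomes. The count was 6 in MG against control GM (16.2% against 27.5%), 15 in MS against control DM3 (40.5% against 43.5%) and 18 in MG against control DM3 (48.6% against 40.7%). The median log2 difference in the window was -0.26 for MS GM, -0.07 for MG GM, -0.09 for MS DM3 and 0.06 for MG DM3, against -0.02, -0.04, 0.02 and -0.01 on other chromosomes. For the 907 tested genes over 5 Mb away on chromosome 7 the medians were -0.09, -0.02, -0.12 and 0.02 in that order. Of those genes 29.5%, 17.0%, 40.6% and 34.5% were called, with 100 higher and 168 lower in MS GM and 117 and 251 in MS DM3. A low median in MS DM3 and a low share of calls in MG GM were thus also seen over 5 Mb away on chromosome 7. In MS GM the window median of -0.26 was lower than that of each of these other sets. It was also lower than the -0.06 of the 81 tested genes at 1 to 5 Mb. The reason was not tested. The window values describe 37 genes that share a region and were not tested as a set.

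Of the unlisted window genes, none passed an absolute log2 difference of 1 with a call in GM. In DM3, MS cells had higher Fgf21, a secreted metabolic hormone whose start lies at -761 kb from that of Myod1 (14.3 ± 8.69 against 2.45 ± 0.376 FPM in control, difference 2.01, limma adjusted p = 0.0062). They also had higher Mamstr, a coactivator of MEF2 factors (1.47 ± 0.993 against 0.0758 ± 0.0301 FPM, difference 1.13, limma adjusted p = 0.00028), which was higher in MG DM3 as well (1.17 ± 0.159 FPM, difference 1.01, limma adjusted p = 0.00072). MS DM3 cells had lower Ftl1, the ferritin light chain (560 ± 70.9 against 1337 ± 59.6 FPM, limma adjusted p = 2.0e-05), and lower Dbp, a circadian transcription factor (8.23 ± 3.77 against 18.0 ± 6.31 FPM with overlapping libraries, limma adjusted p = 0.022). In MG DM3, Plekha4 was lower (8.63 ± 2.37 against 21.6 ± 0.897 FPM, limma adjusted p = 0.035) and Tmem86a higher (39.9 ± 6.29 against 17.4 ± 0.165 FPM, limma adjusted p = 0.018). The start nearest to Myod1 among these was that of Dbp at -671 kb, while Otog, 135 kb away, was the nearest tested gene.

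**Figure D4:**
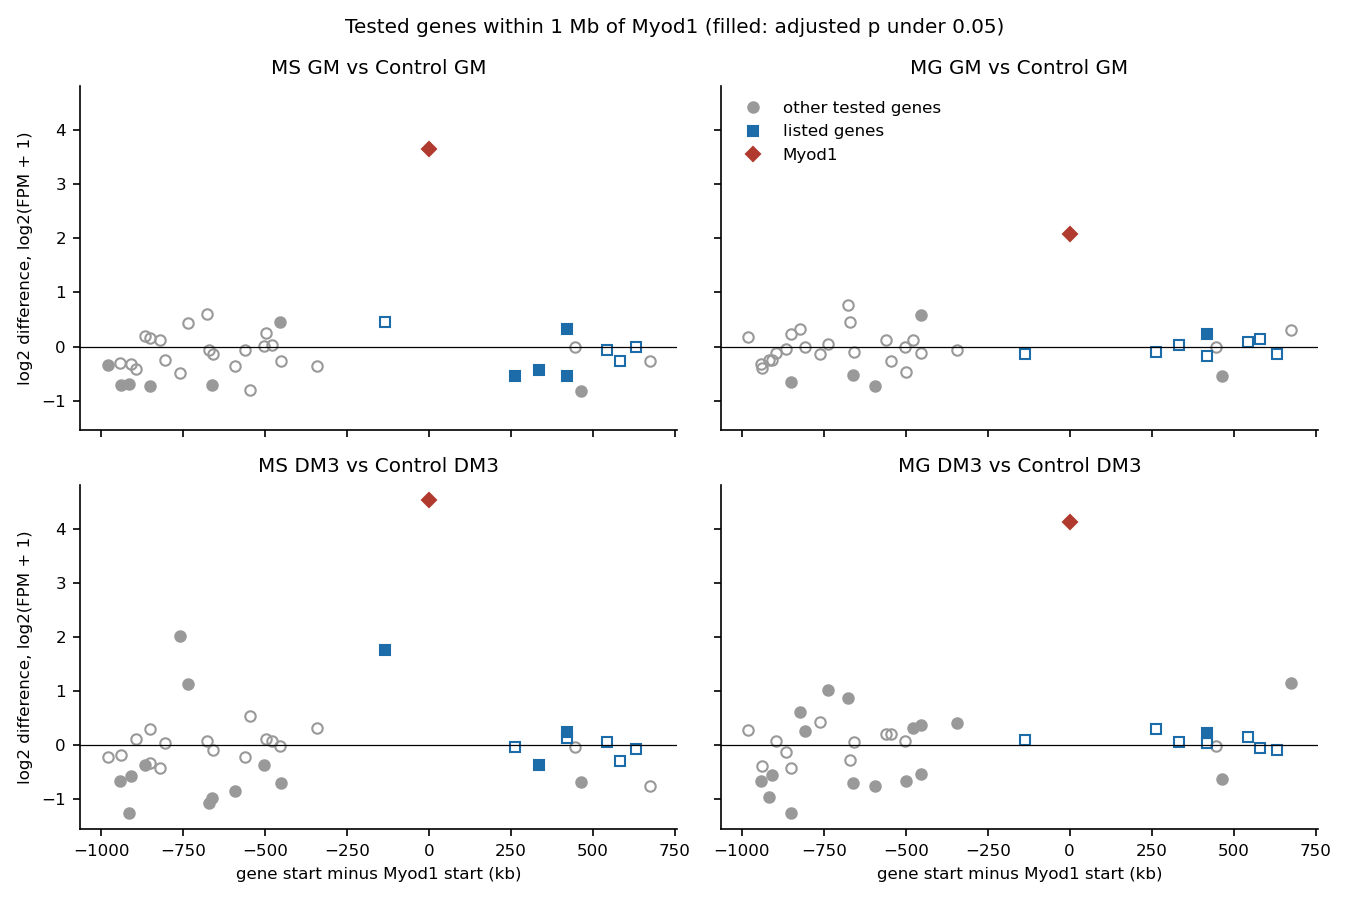
Log2 difference (log2(FPM + 1) scale) of every tested gene within 1 Mb of Myod1 against the distance of its start from that of Myod1 in kb; filled symbols have an adjusted p under 0.05. Myod1 is the highest point in each panel, and Otog at -135 kb is the only listed gene above 1, in MS DM3.

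Partners of the listed genes were followed in lists by function, and their counts are to be read against the shares of all tested genes given above. In the comparisons with control these were 18.2% higher and 17.3% lower for MS GM, 12.2% and 14.5% for MG GM, 22.3% and 21% for MS DM3, and 19.3% and 20.9% for MG DM3. No list was tested as a set. Of the other 9 TFIIH subunits, 5 were called higher and 0 lower in MS against control DM3 (median 0.26, against 0.0090 over all tested genes), 2 and 0 in MG DM3, 1 and 0 in MS GM and 0 and 1 in MG GM, while Gtf2h1 itself was called lower in MS GM. Gtf2h3 rose from 20.6 ± 0.889 to 34.8 ± 1.13 FPM between control and MS DM3 (0.73, limma adjusted p = 4.8e-05), and Gtf2h5 was at 68.3 ± 4.60 FPM in MG DM3 against 37.6 ± 5.29 FPM (0.85, limma adjusted p = 0.00015). Of 13 genes of the BLOC and HPS family, to which Hps5 belongs, 3 were higher and 2 lower in MS GM, 2 and 1 in MG GM, 4 and 2 in MS DM3, and 4 and 1 in MG DM3. Hps1 was higher in MG GM (29.4 ± 5.95 against 13.8 ± 1.75 FPM, limma adjusted p = 0.0069) and Bloc1s6 lower in MG DM3 (47.7 ± 1.19 against 94.4 ± 4.67 FPM, limma adjusted p = 5.6e-08).

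Of 14 tested ESCRT genes, partners of Tsg101, 0 were higher and 4 lower in MS GM, 0 and 3 in MG GM, 1 and 3 in MS DM3 and 0 and 4 in MG DM3; of all genes 17.3%, 14.5%, 21% and 20.9% were lower. Mvb12a, a subunit of ESCRT-I, was lower in both lines in DM3 (26.5 ± 5.60 FPM in MS and 36.0 ± 2.85 FPM in MG against 68.0 ± 4.23 FPM in control; limma adjusted p = 5.6e-07 and 3.6e-05). Of 7 histone chaperones, the class of Spty2d1, 0 were higher and 6 lower in control DM3 than in control GM (median -1.12, against 0.02 over all tested genes), beside 29.6% higher and 28.6% lower of all genes. In MS 0 were higher and 5 lower (17.2% and 18.4% of all genes), and in MG 0 and 6 (26.3% and 25.1%). Spty2d1 was higher in each. Nasp and Asf1a were higher in MS DM3 than in control DM3 (1.14 and 0.86; limma adjusted p = 0.00028 and 0.00043), where 3 of the 7 were higher and 0 lower.

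For the distant pair, 8 genes of phosphoinositide 3-kinases and clathrin uptake and 8 of nucleobindin and ER calcium binding were tested. In MG DM3 the first list had 1 higher and 3 lower, and Pik3c2b, a class II kinase like Pik3c2a, was at 4.56 ± 0.816 FPM against 0.561 ± 0.289 FPM in control (1.84, limma adjusted p = 4.4e-07) and at 2.92 ± 0.578 against 0.308 ± 0.0664 FPM in GM (1.57, limma adjusted p = 5.0e-06). In MS DM3, where Nucb2 was lower, 0 of the calcium-binding genes were higher and 2 lower. Rcn3 was lower in MG than in control in DM3 (46.9 ± 2.44 against 134.8 ± 33.2 FPM, limma adjusted p = 0.0041) and in GM (16.6 ± 8.93 against 43.9 ± 12.6 FPM, limma adjusted p = 0.0068).

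Likeness of profile was measured as the root mean square difference between the centred group means of 2 genes over the 6 groups, on the log2 scale. The gene most like Otog was Trim72, a membrane-repair protein of muscle, at 0.084, compared with a deviation of 0.70 of Otog from its own mean. Saal1 was most like Mto1 (0.038), Hps5 most like Hcfc2 (0.023), Sergef most like Polr2a (0.046), Gtf2h1 most like Vdac3 (0.043) and Nucb2 most like Avl9 (0.056). Uevld, Spty2d1 and Pik3c2a were most like Prrc2a, Zfp420 and Chic1 (0.022 to 0.030). None of the 10 had another listed gene as its nearest profile. Few of the 13868 genes compared are listed, so this outcome was likely for any list of this size. The listed gene nearest in profile ranked 55th of 13868 for Saal1 (Uevld) and 1996th for Otog (Hps5). Such ranks were not worked out for other lists, so they do not show whether the neighbours moved together.

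The authors' deposited tables cover 5 of the comparisons and gave the same sign as limma for 10 of 10 listed genes in each. In the authors' deposited table on control differentiation 5 listed genes were called, beside 43.2% of the genes given an adjusted p there. In the authors' deposited tables on MS against control 4 were called in GM (25.3% of all genes) and 3 in DM3 (33.1%). The authors' deposited tables on MG against control called 0 in GM (19.9%) and, in DM3 (39.3%), 1, which was Nucb2 (log2 fold change -0.32, adjusted p = 0.0071). Otog was called higher in the authors' deposited tables on MS both in GM (2.20, adjusted p = 0.032) and in DM3 (3.75, adjusted p = 0.0013). Hps5 was not called in any of the authors' deposited tables.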

How the data were processed

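Poly(A) RNA-seq libraries (18, in 6 groups of 3) were grouped by their titles. For 9 samples a second label (myoblasts or myotubes) contradicts the title, and it was set aside. Normalized signal for all libraries, called FPM here, stands in 1 deposited table: in every library each value was a whole multiple of 1 step (100% of values, to within 0.1 read), so the values are the reads of a gene scaled by 1 factor per library. Comparisons by the authors fill 5 more tables, which per the file headers hold log2 fold changes, p-values and, as scores, mean normalized counts and test statistics. The submitters' processing notes name STAR, HTSeq, DESeq2 and mm10, with no settings given in the sources used here.

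Differences were tested with limma 3.58.1 (R 4.3.3) on log2(FPM + 1) for the 13869 genes that reached 0.5 FPM in 3 libraries, with all 18 libraries in 1 fit (12 residual degrees of freedom). Calls are at a p under 0.05 after Benjamini-Hochberg adjustment over all of these genes. The filter passed all 10 listed genes, Otog through 7 libraries. Alternatives were a pseudocount of 0.1, other filters, equal sums, quantile normalization, a replicate block, fits of the compared groups alone, each library left out, and edgeR 4.0.16 and DESeq2 1.42.0 on recovered reads; a replicate block within each medium was added after seeing the data. The limma step was also run on simulated reads, drawn with the same extra spread for every gene. Those simulated libraries were independent, so the run does not cover the shared deviations of same-numbered replicates given below. The listed genes, partner lists and naming rules were chosen with earlier results of these data known.

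Other window genes were named where called with an absolute log2 difference of at least 1 in a line against control, partners as the 2 largest called changes in each list over those comparisons, and 1 most similar gene for each listed gene, which for Tsg101 is not reported here. Same-numbered replicates deviated together, at r of 0.171 to 0.727 in every pair, in the control differentiation comparison, in each line against control and in MS against MG in GM. The smallest such r was 0.0163 for MS differentiation, 0.0531 for MG differentiation and 0.0939 for MS against MG in DM3, which were not taken as paired. The labels do not say what the numbers share. GENCODE M21 held 34490 of the 35275 identifiers (97.8%). The floor of 3 reads covers counting error only, as PCR copies were not told apart.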

Additional observations from a re-analysis of the deposited data

Results flagged for a closer look

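The response of Otog to differentiation differed between MS and control cells by 1.32 on the log2(FPM + 1) scale, an interaction called by limma (adjusted p = 0.039). Control cells went from a mean of 0.112 to 0.288 FPM and MS cells from 0.513 to 3.88 FPM. The response of Gtf2h1 differed between the same lines by 0.68 (limma adjusted p = 0.042). Control cells went from a mean of 104 to 68.5 FPM and MS cells from 71.1 to 74.5 FPM. Both calls were lost in the fit of the compared groups alone (adjusted p = 0.091 and 0.081) and with no filter on low values (adjusted p = 0.081 and 0.075). The Gtf2h1 call was also lost with equal sums per library (0.61, limma adjusted p = 0.061). The Otog call was also lost with a pseudocount of 0.1, edgeR and DESeq2. With 1 library left out, the Otog interaction was called in 9 of 18 fits (0.85 to 1.72) and the Gtf2h1 interaction in 5 of 18 (0.54 to 0.83).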

How the results depend on the processing

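The number of the 10 listed genes called moved by over 1.5 times in these cases. In the fits of the compared groups alone it was 3 in place of 5 for MS differentiation, 2 in place of 4 for MS against control GM, 0 in place of 1 for MG against control GM, 2 in place of 1 for MS against MG GM and 0 in place of 2 for the MS interaction. The MS interaction count was also 0 with no filter on low values, and 1 with a pseudocount of 0.1, a filter of 2 FPM, equal sums, edgeR or DESeq2. MS against MG GM gave 2 with a pseudocount of 0.1 or quantile normalization, 4 with the replicate block and 5 with edgeR or DESeq2. MS against MG DM3 gave 1 in place of 2 with a filter of 2 FPM, which removes Otog, and MG against control GM gave 2 with DESeq2. A replicate block within each medium, chosen after seeing the data, gave 2 and 4 for MG against control in GM and DM3, 5 and 4 for MS against MG in GM and DM3, and 4 and 1 for the MS and MG interactions. Under it Sergef and Nucb2 joined the MS interaction (0.52 and -0.51, limma adjusted p = 0.025 and 0.0055, against 0.16 and 0.38 without it) and Uevld and Nucb2 the MS GM calls (adjusted p = 0.049 and 0.011). Nucb2 was the gene called in the MG interaction with the block within each medium (-0.49, limma adjusted p = 0.011). With the replicate block the pairing changed no call beyond those given with the genes. For most counts in this section, those with 1 library left out included, the share of all genes called is not given here. For MS against MG GM that share itself went from 35.8% to 47% with the replicate block. The counts therefore show how calls moved and are no result about the listed genes.

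Leaving out 1 library gave 2 to 5 called genes for MS differentiation and for MS against control GM, 0 to 1 for MG against control in GM and in DM3, 2 to 4 for MS against control DM3, 1 to 3 for MS against MG GM and 0 to 2 for the MS interaction.

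Differences that changed sign were all uncalled. With quantile normalization these were Pik3c2a in MG differentiation (0.032), Tsg101 and Spty2d1 in MS against control GM (0.0033 and 0.045), and Hps5 and Spty2d1 in MS against MG DM3 (-0.016 and -0.022). With equal sums they were Tsg101 and Spty2d1 in MS against control GM (0.057 and 0.10) and Sergef in MS against control DM3 (0.0079). With DESeq2 they were Hps5 and Spty2d1 in MS against MG DM3 (-0.012 and -0.0047). The cause was not tested.

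With 1 library left out, the following crossed 0. In differentiation, Tsg101 ran from -0.12 to 0.079 in control and from -0.042 to 0.11 in MG, Gtf2h1 from -0.023 to 0.18 in MS and Pik3c2a from -0.11 to 0.10 in MG. In MS against control GM, Tsg101 ran from -0.14 to 0.073, Spty2d1 from -0.15 to 0.15 and Nucb2 from -0.58 to 0.021. In MG against control GM, Saal1 ran from -0.034 to 0.055, Uevld from -0.058 to 0.30, Spty2d1 from -0.31 to 0.068 and Nucb2 from -0.12 to 0.45. In MS against control DM3, Sergef ran from -0.11 to 0.087, Gtf2h1 from -0.0043 to 0.29, Tsg101 from -0.026 to 0.14 and Pik3c2a from -0.061 to 0.13. In MG against control DM3, Otog ran from -0.043 to 0.25 and Gtf2h1 from -0.11 to 0.19. In MS against MG, Spty2d1 ran from -0.078 to 0.30 and Pik3c2a from -0.28 to 0.015 in GM, and Hps5 from -0.025 to 0.069 and Spty2d1 from -0.046 to 0.084 in DM3.

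Depth limits Otog, which had at most 1 read in each MG GM library, so that no fold against that group can be given. The number of replicates, 3 a group, limits differences the size of those of Hps5.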
